A study of Saccharomyces cerevisiae with 40 samples.

Results

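Budding yeast (Saccharomyces cerevisiae) cultures given an excess of methionine were compared with cultures given an excess of cysteine, the other sulfur-containing amino acid. The members were the 4 libraries labelled Met and the 4 labelled Cys, 8 of the 40 libraries of the series, and they were described across all genes. The series is a study of overfeeding yeast with single metabolites. Its other groups, each of 4 libraries, were an untreated group labelled Ctrl and 7 groups labelled for other amino acids (alanine, glycine, valine, isoleucine, threonine, phenylalanine and tryptophan). The labels give the treatment and a batch letter (A to D) for each culture. The labels give no strain, genotype, medium, dose or duration, so an unequal dose or effect on growth cannot be told apart from the kind of amino acid. That replicates came from separate cultures is not stated beyond the batch letter, and p-values measure the spread between these libraries.

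Yeast takes up sulfate and reduces it to sulfide, which is joined to a carbon chain to make homocysteine. Homocysteine is methylated to methionine or passed through cystathionine to cysteine, and the reverse route exists too, so either amino acid can supply the other. Methionine is also the source of S-adenosylmethionine, the methyl donor of the cell, and cysteine is a precursor of glutathione and gives its sulfur to iron-sulfur clusters. Transcription of the sulfur pathway is driven by Met4 with the DNA-binding partners Cbf1, Met31 and Met32, and is known to be repressed when methionine or cysteine is plentiful.

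Poly(A) RNA was sequenced, and the values are the authors' normalized read counts per gene, printed here without a further unit. Differences are on the log2(value + 1) scale as Met minus Cys, with a standard error (SE), and a gene was called where its Benjamini-Hochberg adjusted p from limma, fitted to all 40 libraries and 6103 genes, was under 0.05. On this scale the change of a gene with low values is understated. Estimated depth was 5652042 to 16698564 reads in the Met, Cys and Ctrl libraries, and normalized totals were 8460734 to 9979201. Genes of mating type a were present in every library, with STE2, the receptor for alpha factor, at 1978 or more and MFA1 at 10.1 to 355. Of the genes that encode alpha factor, MF(ALPHA)1 was at 8.80 or less and MF(ALPHA)2 at 24.5 to 57.6. The alpha gene STE3 was at 8.23 to 86.0. In bulk RNA, fewer cells expressing a gene and less RNA per cell cannot be told apart.

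A few libraries stood apart within their groups. Met B had the highest general stress genes of the 4 Met libraries (mean log2 level of 40 genes 8.40, against 7.35 to 7.84 in the others) and the lowest ribosome biogenesis genes (10.51, against 10.98 to 11.24). Cys D had the highest arginine synthesis genes of its group (mean log2 level of 9 genes 13.52, against 11.96 to 12.47), and Ctrl C had the lowest of its own (11.18, against 12.04 to 12.11). Without Ctrl C 457 genes differed between Met and Ctrl and 127 between Cys and Ctrl, against 598 and 173 with it. Leaving out any other Ctrl library lowered these counts too. They were 422 and 103 without Ctrl A, 465 and 116 without Ctrl B, and 414 and 122 without Ctrl D. Values without Met B or Cys D stand beside several of the results they touch.

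Between Met and Cys 1624 genes differed. Of these, 815 were higher in Met (13.4% of the genes tested) and 809 were higher in Cys (13.3%). Each count of list members called between Met and Cys below stands beside these shares of all genes. Differences of at least 2-fold were less even, with 194 genes higher in Met (3.18%) and 46 higher in Cys (0.754%). When Met B and Cys D were both left out, a check added after the values were seen, 1109 genes differed, 595 higher in Met and 514 higher in Cys, and 218 differed by at least 2-fold. Leaving out Cys B alone gave the lowest count, 1050. The split depended on the scaling. With every library brought to the same total, 1385 genes were called higher in Met and 325 higher in Cys, because that scaling moved the median difference of all genes from about 0 to 0.139. No named gene that was called changed sign under any alternative tried.

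**Figure D1:**
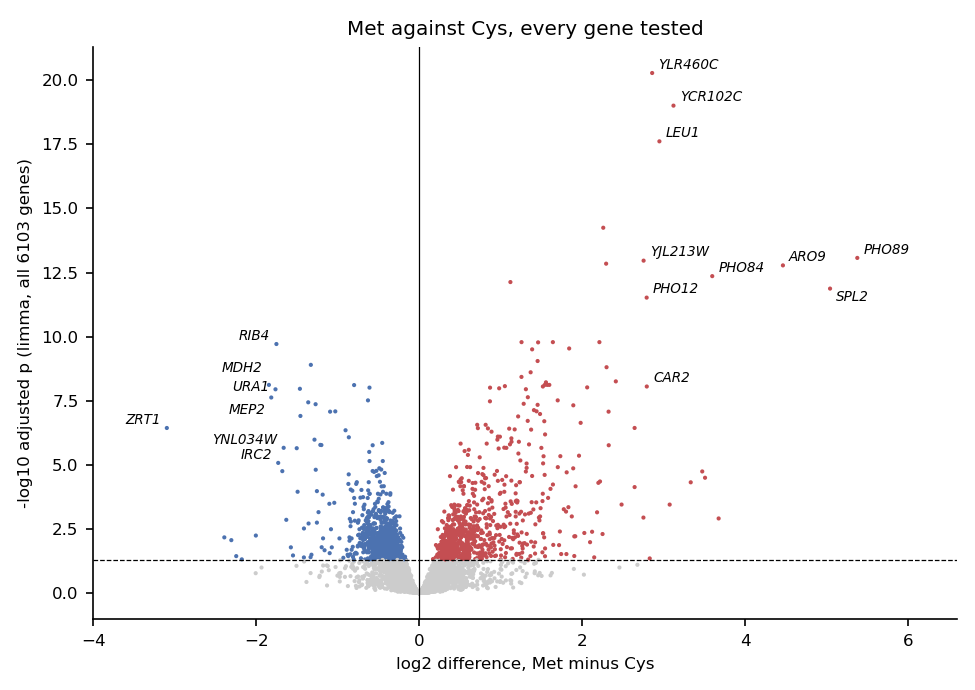
Each point is one of the 6103 genes tested, placed by its log2 difference between Met and Cys (positive is higher in Met) and by the negative log10 of its adjusted p. Red points were called higher in Met (815 genes) and blue points higher in Cys (809 genes); the dashed line marks an adjusted p of 0.05, and the named genes are those of the leading 24 that lie highest.

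The genes with the largest differences included transporters and enzymes of phosphate, leucine, aromatic amino acid and zinc metabolism, and no enzyme of sulfur assimilation. On the Met side the 12 leading genes were PHO89, SPL2, ARO9, PHO84, TMA10, YPT53, YCR102C, LEU1, YLR460C, CAR2, PHO12 and YJL213W, with differences from 5.38 down to 2.75. On the Cys side they were ZRT1, PRM7, BSC1, RRT5, SPO19, MDH2, MEP2, URA1, RIB4, IRC2, AGA1 and YNL034W, from -3.10 to -1.66. Some of these are uncertain. CAR2 and IRC2 had mostly fractional values (80.0% and 77.5% of libraries), PHO12 shares 87.2% of its 50-base words with other places in the genome, YNL034W 42.0%, YCR102C 17.4% and YLR460C 18%. RRT5 and SPO19 passed narrowly (adjusted p = 0.0362 and 0.0484) and lost the call when any of several single libraries was left out, with adjusted p up to 0.146 and 0.165.

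**Figure D2:**
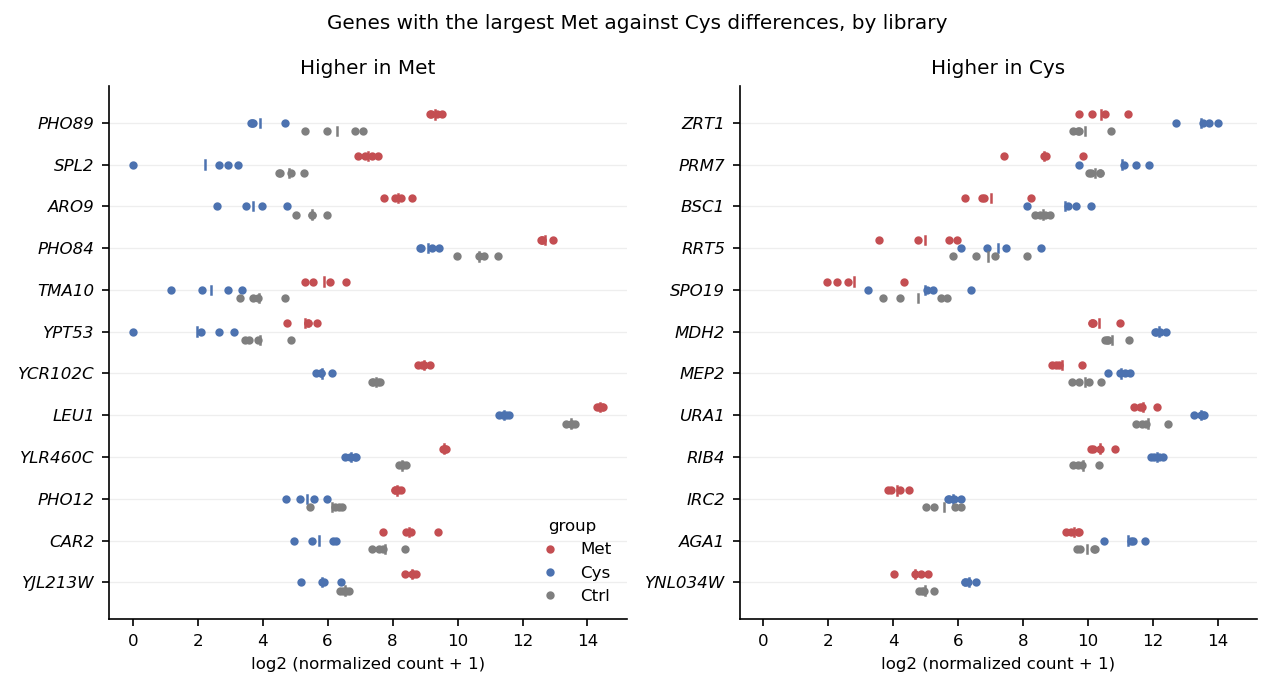
Normalized counts of the 24 leading genes on a log2(value + 1) axis, one point per library and a short bar at each group's mean of log2 values, for Met (red), Cys (blue) and Ctrl (grey). For PHO89, SPL2, PHO84, LEU1 and ARO9 the Ctrl libraries lie between the other groups; for ZRT1, URA1 and RIB4 the Met and Ctrl libraries overlap and Cys lies above.

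The upstream regions below are those of genes on which the phosphate, leucine and zinc results turn. Each is 60 bases of the strand that reads towards the gene, from the RefSeq R64 genome (the build behind the deposited table is not given in the sources used here), with matches to a factor's known binding word in capitals. In LEU1, BAT1 and BAP2 the capitals mark the Leu3 word CCGGNNCCGG, in PHO84, PHO89, SPL2 and VTC3 the word CACGTG bound by Pho4 and Cbf1, and in ZRT1 the Zap1 word ACCTTNAAGGT. The stretches begin 242, 172, 411, 463, 350, 388, 372 and 229 bases before the start codon, in the order printed.
LEU1: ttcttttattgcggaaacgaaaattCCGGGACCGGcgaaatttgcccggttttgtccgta
BAT1: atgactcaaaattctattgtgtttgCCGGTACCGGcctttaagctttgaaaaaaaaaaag
BAP2: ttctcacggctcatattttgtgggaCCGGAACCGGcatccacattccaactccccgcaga
PHO84: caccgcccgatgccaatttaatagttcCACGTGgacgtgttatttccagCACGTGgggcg
PHO89: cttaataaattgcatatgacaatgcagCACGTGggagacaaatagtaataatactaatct
SPL2: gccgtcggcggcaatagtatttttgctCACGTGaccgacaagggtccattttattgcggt
VTC3: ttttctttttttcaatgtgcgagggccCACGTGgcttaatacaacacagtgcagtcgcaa
ZRT1: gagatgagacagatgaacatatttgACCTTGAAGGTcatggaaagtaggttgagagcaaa

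In R64 coordinates these stretches are chrVII:478835-478894 (minus strand) for LEU1, chrVIII:517360-517419 (plus) for BAT1, chrII:376042-376101 (minus) for BAP2, chrXIII:26204-26263 (minus) for PHO84, chrII:798813-798872 (minus) for PHO89, chrVIII:375429-375488 (minus) for SPL2, chrXVI:517331-517390 (minus) for VTC3 and chrVII:20749-20808 (plus) for ZRT1. All lie upstream of the coding sequence, within the 500 bases searched on both strands for each of 5634 tested genes. The word CACGTG was in 6.27% of these regions and in 14 of the 21 phosphate genes. The Leu3 word was in 0.266% of them (15 genes) and the Zap1 word in 0.160% (9 genes); these 2 words were chosen after the values were seen. Among genes holding CACGTG 20.7% were higher in Met and 13% in Cys, beside 13.4% and 13.3% of all 6103 genes tested. Among the 15 with the Leu3 word 7 and 0 genes were, and among the 9 with the Zap1 word 1 and 2 were. Of the 8 genes reported under Leu3, a list also made after the values were seen, 6 held the Leu3 word, and ZRT1 was the 1 zinc gene of 10 with the Zap1 word. Words chosen beforehand for other factors were searched too. The Gcn4 word TGACTC was in 730 of the 5634 regions. It was in 9 of the 10 branched-chain genes and in 7 of the 8 reported under Leu3. Of genes higher in Met 18.6% held it, and of those higher in Cys 9.43%. For the Msn2 and Msn4 word AGGGG these shares were 44.3% and 26.8%, against 34.3% of all regions. For Met31 and Met32 they were 3.14% and 2.26%, against 2.73% of all regions, and for Aft1 3.02% and 1.64%, against 2.36%. A match is a description of the letters only.

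The largest single difference, that of PHO89, was in a phosphate gene. Yeast senses phosphate through the Pho85 kinase, its inhibitor Pho81 and the activator Pho4, which turns on transporters, acid phosphatases and polyphosphate synthesis when phosphate is short. Of 21 phosphate genes tested 12 were higher in Met, 2 were higher in Cys and 7 were not called, with a median difference of 0.69 against 0.00 over all genes. The high-affinity transporter PHO84 stood at 6080, 6219, 6208 and 7925 in the Met libraries and at 455, 467, 681 and 597 in Cys. Every Met library was above every Cys library, by 12.1-fold on the fitted scale (3.60 ± 0.26 SE, adjusted p = 4.36e-13). The sodium-phosphate cotransporter PHO89 read 574, 567, 664 and 733 in Met and 11.4, 11.8, 12 and 24.9 in Cys (5.38 ± 0.36, adjusted p = 8.48e-14). SPL2, a small protein that lowers uptake by the low-affinity phosphate transporters, read 140, 122, 165 and 186 in Met and 0, 8.45, 5.33 and 6.65 in Cys (5.04 ± 0.38, adjusted p = 1.33e-12).

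The difference was made on both sides of the control. In Ctrl PHO84 read 1003, 1616, 1784 and 2451, so Met was higher (2.01, adjusted p = 7.01e-07) and Cys was lower (-1.59, adjusted p = 0.000116). PHO89 was likewise 3 above Ctrl in Met and 2.37 below it in Cys by the size of the log2 difference, with adjusted p of 1.38e-07 and 3.32e-05. The polyphosphate synthase subunit VTC3 was at 1668 ± 184 in Met (SD, n = 4), 533 ± 45.4 in Cys and 669 ± 64.3 in Ctrl; it was higher in Met than in Ctrl (1.32, adjusted p = 3.58e-08), while its Cys difference from Ctrl was -0.32 (adjusted p = 0.312). The acid phosphatases PHO11 (2.21) and PHO12 (2.79) were higher in Met than in Cys, but their sequences are near-identical and reads may be split between them. Against Ctrl, 11 of the 21 genes rose and 2 fell in Met, where 6.06% of all genes rose and 3.74% fell, and 1 rose and 5 fell in Cys, where 1.29% of all genes rose and 1.54% fell. The 2 genes higher in Cys were PHO3, a constitutive acid phosphatase (-1.09, adjusted p = 8.40e-08), and PHO90, a low-affinity transporter (-0.37, adjusted p = 0.0462), and the count was 1 without Met A, Met B, Met D, Cys B or Cys C.

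Set among the other amino acids, the Cys cultures were the ones at the edge for PHO84. The 7 other groups had PHO84 means from 2330 (Ile) to 31116 (Gly), and Met, at rank 5 of the 10 groups, did not pass the test against them (-0.30, adjusted p = 0.365), whereas Cys was the lowest group (-3.89, adjusted p = 8.84e-18). Against the other 7, 15 phosphate genes were lower in Cys and 4 higher, beside 17.1% and 17% of all genes; in Met 8 were lower and 0 higher, beside 7.29% and 7.37%. PHO89 in Met was 0.72 above the other 7 (adjusted p = 0.0707).

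Genes of leucine synthesis were the second large block. Leucine, isoleucine and valine are made by shared enzymes, and alpha-isopropylmalate, an intermediate of leucine synthesis, switches the regulator Leu3 from repressor to activator. LEU1, isopropylmalate isomerase, an iron-sulfur enzyme, read 20735, 22816, 20072 and 22205 in Met, 2502, 3063, 2706 and 2865 in Cys, and 11555, 12581, 10377 and 11704 in Ctrl. The 3 groups did not overlap. The Met to Cys difference was 2.95 ± 0.14 (adjusted p = 2.41e-18), of which Cys was 2.05 below Ctrl by size (adjusted p = 5.64e-13) and Met 0.89 above it (adjusted p = 1.85e-05). OAC1, the mitochondrial carrier that exports isopropylmalate, was at 3488, 3249, 2981 and 3690 in Met and at 613, 739, 677 and 772 in Cys (2.26 ± 0.14, adjusted p = 5.65e-15). BAT1, the mitochondrial branched-chain transaminase, was higher in Met by 1.60 ± 0.17, and BAP2, a permease for leucine, isoleucine and valine, by 1.44 ± 0.17 (adjusted p = 7.60e-09 and 8.15e-08). LEU4, the first enzyme of the leucine branch, differed by 1.22 ± 0.18 (adjusted p = 3.61e-06); its Cys libraries read 5011, 7334, 7266 and 13377, the last being Cys D, and without it the difference was 1.48.

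Of 10 branched-chain genes tested 7 were higher in Met and 0 higher in Cys (median 0.71). The other 3, ILV1 (threonine deaminase), ILV6 (the regulatory subunit of acetolactate synthase) and LEU3 itself, had differences of -0.12, -0.14 and -0.02. Against Ctrl 4 rose in Met and 0 fell, beside 6.06% and 3.74% of all genes. In Cys 4 fell and 0 rose, beside 1.54% and 1.29%. Without Met B and Cys D the count higher in Met was 6. In a list of 8 genes reported under Leu3, put together after the values were seen and so no support by itself, all 8 were higher in Met in this fit (LEU1, LEU4, ILV2, ILV5, BAT1, OAC1, GDH1 and BAP2, median 1.33), with GDH1, a glutamate dehydrogenase, only just called (0.30, adjusted p = 0.0492) and not called under 11 of the alternatives.

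ARO9, an aromatic transaminase that Aro80 induces, read 305, 384, 211 and 268 in Met and 5.06, 10.1, 14.7 and 25.8 in Cys (4.46 ± 0.31, adjusted p = 1.66e-13). Its Ctrl libraries read 44.5, 44.6, 31.5 and 62.5, between the others and overlapping neither. The decarboxylase ARO10 (1.31 ± 0.21) and the cytosolic branched-chain transaminase BAT2 (1.46 ± 0.13) were also higher in Met, with adjusted p of 1.82e-05 and 1.67e-10. These enzymes break amino acids down to fusel alcohols, the Ehrlich pathway, in which methionine gives methionol. Of 10 genes of that pathway 4 were higher in Met and 0 in Cys (median 0.20). Against Ctrl 5 rose in Met, beside 6.06% of all genes, and 2 fell in Cys, beside 1.54%. ARO9 was far higher still in the Phe and Trp cultures (up to a mean of 18240 in Trp), and Met did not pass the test against the other 7 (-0.51, adjusted p = 0.158), while Cys was the lowest group of 10.

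**Figure D3:**
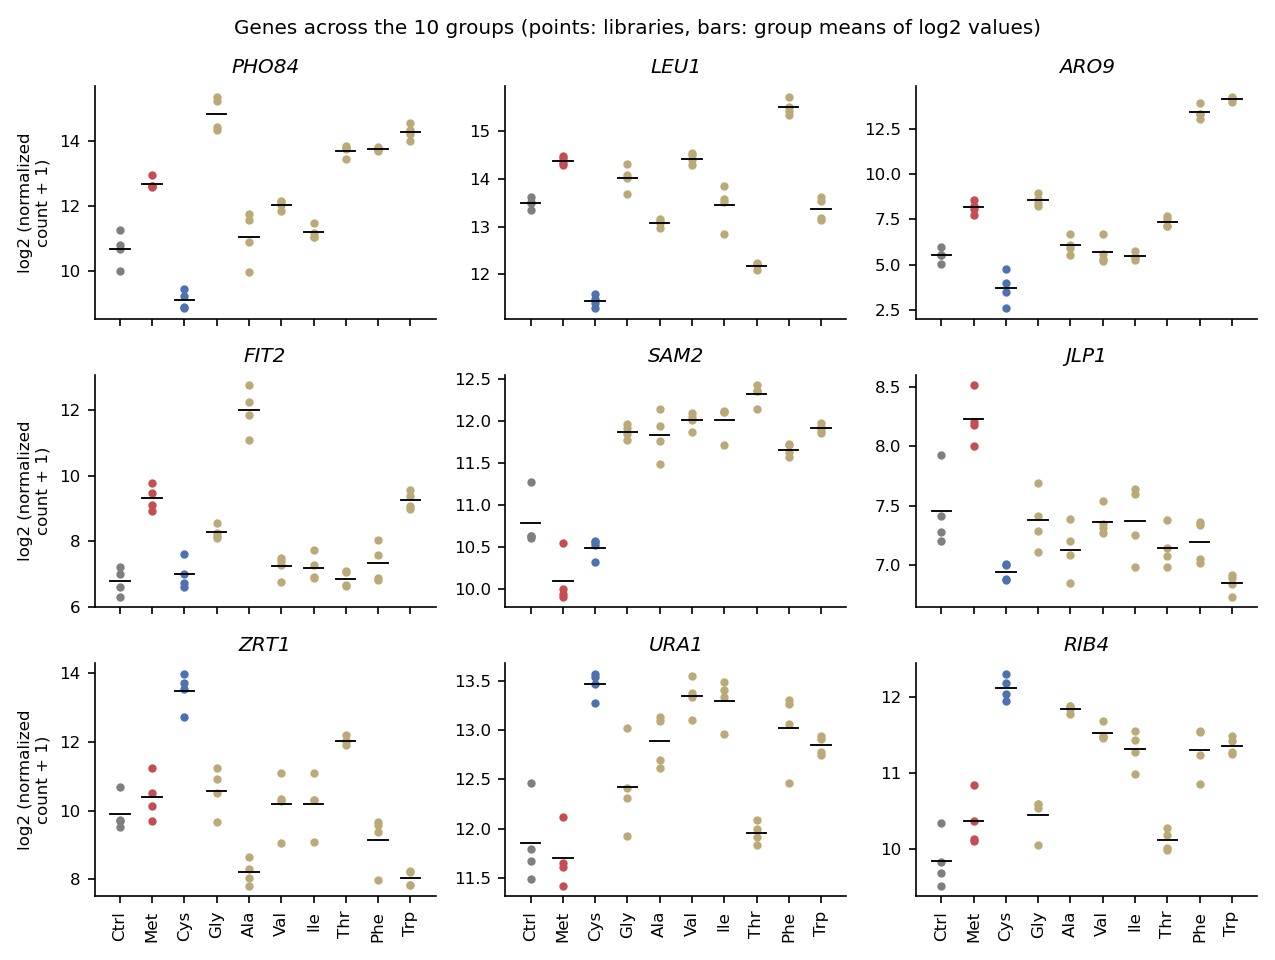
Normalized counts of 9 genes on a log2(value + 1) axis in all 10 groups, one point per library with a bar at each group's mean of log2 values; Met is red, Cys blue, Ctrl grey and the 7 other amino acids tan. By group mean, Cys is the lowest of the 10 groups for PHO84, LEU1 and ARO9 and the highest for ZRT1, URA1 and RIB4, SAM2 is lower in Met, Cys and Ctrl than in the 7 other groups, and JLP1 is highest in Met.

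Most sulfur genes themselves were not called between Met and Cys, but a larger share was higher in Met than over all genes. Of the 45 tested in 5 lists 14 were higher in Met and 4 higher in Cys, beside 13.4% and 13.3% of all genes. The other 27 were not called, and the median difference was 0.23, against 0.00 over all genes. The count higher in Met fell to 7 without Cys A, 8 without Cys C, 9 without Met C and 9 without Met D, and rose to 22 with equal library totals. The largest called difference in a gene with whole values was that of JLP1, a dioxygenase that releases sulfite from sulfonates, at 364, 289, 294 and 255 in Met and 116, 127, 117 and 128 in Cys (1.28 ± 0.15, adjusted p = 4.14e-08). MET28, a cofactor of Met4, differed by more (1.81 ± 0.62, adjusted p = 0.03), but its values were mostly fractional (70.0% of libraries), and it lost the call without Met B, Met C or Cys A (adjusted p = 0.0817, 0.0517 and 0.238).

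For sulfate uptake and reduction 5 of 10 genes were higher in Met and 0 in Cys (median 0.33). MET14, adenylylsulfate kinase, read 228, 187, 177 and 149 in Met and 96.1, 67.6, 93.9 and 83.1 in Cys, with no overlap (1.11 ± 0.24, adjusted p = 0.000902). MET16, which reduces the activated sulfate (0.60, adjusted p = 0.0205), MET22, a phosphatase that clears its by-product (0.46, adjusted p = 0.00714), the sulfate permease SUL2 (0.37, adjusted p = 0.0454) and MET1, needed for siroheme synthesis (0.37, adjusted p = 0.0498), made up the rest. The count was 3 without Met A, Met B, Cys A or Cys B and 2 without Met C or Cys C. The sulfate permease SUL1 (-0.11), the ATP sulfurylase MET3 (0.14), the sulfite reductase subunits MET5 (0.15) and MET10 (0.28) and MET8 (-0.13) were not called. MET10, which read 1016 in Cys D and 469 to 629 in the other Cys libraries, passed without Cys D, where its difference was 0.49 (adjusted p = 0.00793).

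In methionine synthesis and the methyl cycle 1 of 11 genes was higher in Met and 4 were higher in Cys, and this median turned from -0.10 to 0.04 with equal library totals. The S-adenosylhomocysteine hydrolase SAH1 read 11909, 11212, 17017 and 12262 in Met and 22276, 23862, 25218 and 20186 in Cys, with no overlap (-0.82 ± 0.15, adjusted p = 0.000102). The S-adenosylmethionine synthetases SAM1 (-0.47, adjusted p = 0.0291) and SAM2 (-0.39, adjusted p = 0.0255) and the adenosine kinase ADO1 (-0.31, adjusted p = 0.0186) were the others, and with equal library totals none of these 3 passed. The count higher in Cys was 1 without Met A, Met B or Cys C and 2 without Met D, Cys A or Cys B. SAM2 fell in Met against Ctrl (-0.69, adjusted p = 0.000438). The homocysteine methyltransferase MHT1 was the gene higher in Met (0.69, adjusted p = 0.0470), at 34.7 or less in every library of both groups, and it lost the call without Met A, Met B, Met D, Cys A or Cys C. Methionine synthase MET6 (-0.21), SAM4 (0.02), the reductases MET12 (0.02) and MET13 (0.51), MET7 (-0.10) and MET2 (0.22, mostly fractional values) were not called. MET13 read 430, 784, 827 and 2130 in Cys, and without Cys D, the last of these, its difference was 0.94 (adjusted p = 0.00209).

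Between homocysteine and cysteine, STR2, cystathionine gamma-synthase, read 1062, 1078, 1262 and 1258 in Met and 494, 617, 547 and 1008 in Cys (0.86 ± 0.16, adjusted p = 0.000194), and STR3, which returns cystathionine to homocysteine, differed by 0.94 ± 0.33 (adjusted p = 0.0344). The count of 2 among 5 genes was 1 without Met C, Met D, Cys B or Cys C. CYS3 (0.03), CYS4 (-0.21) and IRC7 (0.14, mostly fractional values), which act on the cysteine side, were not called. Among 6 regulators MET28 alone was called. MET4 (0.22, adjusted p = 0.0575) and MET30 (0.28, adjusted p = 0.0797), the ubiquitin ligase subunit that restrains Met4, passed with the batch letter as a replicate block (adjusted p = 0.0351 and 0.0141), whereas CBF1 (0.24), MET31 (-0.02) and MET32 (-0.07) had adjusted p of 0.238 or more.

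Transport and scavenging genes had 5 of 13 higher in Met and 0 in Cys (median 0.41), or 8 with the replicate block, where MUP1, BDS1 and PDC6 also passed (adjusted p = 0.0480, 0.0291 and 0.0375). Without Cys A 2 passed and without Met D 3. Besides JLP1 they were the S-methylmethionine permease MMP1 (0.80 ± 0.14, adjusted p = 8.86e-05), the sulfite pump SSU1 (0.57, adjusted p = 0.0142), the low-affinity methionine permease MUP3 (0.67, adjusted p = 0.0261) and the permease SEO1 (1.04, adjusted p = 0.00875). The high-affinity methionine permease MUP1 read 2031, 2168, 2138 and 2208 in Met and 1032, 1631, 1688 and 2374 in Cys, which overlap (0.41, adjusted p = 0.0582). SAM3 (-0.19), YCT1 (0.26), SOA1 (0.23), OPT1 (0.17), BDS1 (0.26), PDC6 (1.34) and HSU1 (0.03) were not called.

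Against Ctrl 8 of the 45 sulfur genes rose and 2 fell in Met, beside 6.06% and 3.74% of all genes. In Cys 1 rose and 4 fell, beside 1.29% and 1.54%. The 4 that fell in Cys were MET14 (-1), MUP1 (-0.58), MUP3 (-0.90) and MMP1 (-1.14), and those that fell in Met were SAM1 and SAM2. Set against the other 7 amino acids, 21 were lower and 7 higher in Met, beside 7.29% and 7.37% of all genes, and 26 were lower and 5 higher in Cys, beside 17.1% and 17%. SAM2 was 1.85 lower in Met and 1.45 lower in Cys by size (adjusted p = 2.03e-16 and 6.78e-14), and MET6 1.09 and 0.88 lower. By group mean SAM2 was lower in Ctrl than in the 7 groups as well. The median difference of the 45 genes from the other 7 was -0.28 in Met and -0.38 in Cys, but from Ctrl it was 0.08 and -0.04. The comparisons with the other 7 share the same libraries of those groups.

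**Figure D4:**
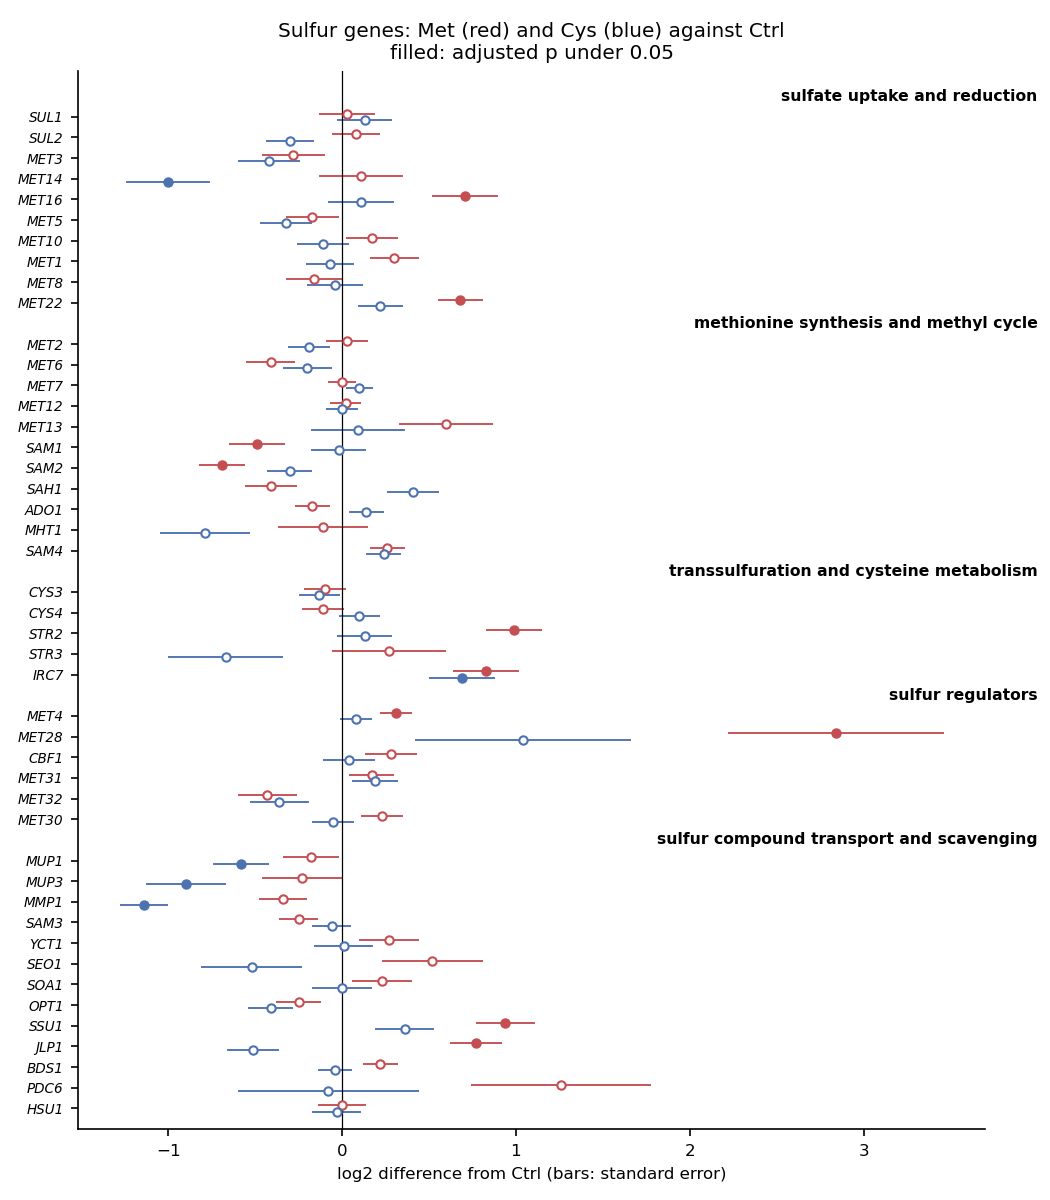
Log2 difference from Ctrl of each of the 45 sulfur genes tested, in Met (red) and Cys (blue), with standard errors; filled points had an adjusted p under 0.05. In Met 8 rose and 2 fell, beside 6.06% and 3.74% of all genes. In Cys 1 rose and 4 fell, beside 1.29% and 1.54%.

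Glutathione genes had 5 of 12 higher in Met and 0 in Cys (median 0.27). They include both synthesis enzymes, GSH1 (0.49 ± 0.08, adjusted p = 4.77e-05) and GSH2 (0.66 ± 0.11, adjusted p = 5.10e-05). In Met GSH1 was at 1208 ± 79.3 and in Cys at 861 ± 92.0 (SD, n = 4), with Ctrl at 1003 ± 27.8. Of 22 oxidative stress genes 8 were higher in Met and 0 in Cys (median 0.26), led by the old yellow enzyme OYE3 (1.89 ± 0.30) and the sulfiredoxin SRX1 (1.16 ± 0.29).

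Several genes were higher in Cys than in Met. ZRT1, the high-affinity zinc transporter, read 13581, 16233, 11840 and 6751 in Cys, 1112, 834, 2399 and 1474 in Met and 843, 738, 1656 and 826 in Ctrl. Cys did not overlap either (Met minus Cys -3.10 ± 0.40, adjusted p = 3.64e-07; Cys above Ctrl by 3.58, adjusted p = 9.57e-08), while the difference of Met from Ctrl was 0.49 (adjusted p = 0.470). The low-affinity transporter ZRT2 (-0.68 ± 0.14, adjusted p = 0.000536) and ZAP1, the zinc-responsive activator (-0.64 ± 0.15, adjusted p = 0.00164), were also higher in Cys, as were the vacuolar zinc transporter ZRC1 (-0.52, adjusted p = 2.75e-05) and IZH2 (-0.67, adjusted p = 0.0234). Of 10 zinc genes 5 were higher in Cys and 1 higher in Met, COT1, another vacuolar transporter (0.61, adjusted p = 2.58e-06). Against Ctrl 3 rose and 0 fell in Cys, beside 1.29% and 1.54% of all genes.

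The cytosolic malate dehydrogenase MDH2 was at 4406, 5422, 4790 and 4228 in Cys and at 1114, 1114, 2037 and 1149 in Met (-1.84 ± 0.20, adjusted p = 7.60e-09). URA1, dihydroorotate dehydrogenase, was at 12172, 11914, 11304 and 9927 in Cys and at 3131, 2741, 4452 and 3204 in Met (-1.76 ± 0.19, adjusted p = 1.13e-08), and URA4, dihydroorotase, at 5575 ± 464 and 2306 ± 124 (SD, n = 4; -1.27 ± 0.15, adjusted p = 4.31e-08). In a pyrimidine list of 9 made after the values were seen, URA7, a CTP synthase, was the other gene higher in Cys (-0.42, adjusted p = 0.0312), and 0 were higher in Met. The replicate block gave 5 higher in Cys, as did leaving out Cys D. URA7 lost the call with equal library totals (adjusted p = 0.11). It also lost it without Met A, Met B, Cys A, Cys B or Cys C (adjusted p from 0.0549 to 0.158). RIB4, lumazine synthase of riboflavin synthesis, read 5043, 4200, 4655 and 3941 in Cys and 1126, 1325, 1835 and 1101 in Met (-1.75 ± 0.16, adjusted p = 1.93e-10), and it was above Ctrl in both, by 2.27 in Cys and 0.52 in Met. The riboflavin genes, a list of 8 also made after the values were seen, did not move together. RIB5 (0.72), RIB3 (0.32) and FMN1 (0.31) were higher in Met, a count of 3 that was 1 without Cys B or Cys C. Only RIB4 was called higher in Cys.

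Nitrogen genes went both ways. Of 24 genes under nitrogen catabolite repression 6 were higher in Met and 8 in Cys, or 5 in Cys when either Met B or Cys B was left out. The ammonium permease MEP2 read 510, 552, 890 and 469 in Met and 1574, 2028, 2518 and 2258 in Cys (-1.82 ± 0.20, adjusted p = 2.36e-08), being below Ctrl in Met (-0.71) and above it in Cys (1.11). The urea genes DUR1,2 (-1.28 ± 0.17) and DUR3 (-1.21 ± 0.17) and the general amino acid permease GAP1 (-1.04 ± 0.20) were higher in Cys too. GDH2, the NAD-dependent glutamate dehydrogenase that releases ammonium, was at 1512, 1716, 1724 and 1865 in Met and at 738, 767, 807 and 816 in Cys (1.12 ± 0.08, adjusted p = 7.43e-13), and PUT1, proline oxidase, was higher in Met by 1.73 ± 0.26.

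Among other amino acid pathways, 6 of 7 histidine genes were higher in Met and 0 in Cys (median 0.57), led by HIS5 (1.26 ± 0.11) and HIS4 (1.18 ± 0.22). HIS4 read 6259, 7658, 9875 and 19014 in Cys, Cys D being far above the others, and without Cys D its difference was 1.51. Lysine genes had 3 of 8 and aromatic genes 4 of 12 higher in Met, with 0 higher in Cys in either; the aromatic count was 2 without Cys A or Cys B. Arginine genes were split. ARG8, acetylornithine aminotransferase, was higher in Cys (-1.20 ± 0.17, adjusted p = 1.69e-06) and ARG4, argininosuccinate lyase, higher in Met (1.15 ± 0.32, adjusted p = 0.00791), with ARG4 at 1849, 2946, 4181 and 12587 in Cys. Of 9 arginine genes 2 were higher in each group; without Cys D 3 were higher in Met and 1 in Cys, without Cys A 1 and 3, and in a fit to Met, Cys and Ctrl alone 0 and 1.

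Iron uptake genes differed most in FIT2. This cell wall mannoprotein, which retains siderophore iron, read 871, 716, 554 and 487 in Met, 106, 98.0, 129 and 195 in Cys and 78.7, 97.2, 128 and 147 in Ctrl. Met overlapped neither (2.32 ± 0.28, adjusted p = 8.40e-08), whereas Cys and Ctrl overlapped each other. The enterobactin transporter ENB1 (1.10 ± 0.14), the heme oxygenase HMX1 (0.97 ± 0.23) and the reductase FRE1 (0.93 ± 0.15) were higher in Met as well. Of 25 genes 7 were higher in Met and 1, FIT1, higher in Cys (-0.83); against Ctrl 13 rose in Met, beside 6.06% of all genes, and 4 rose in Cys, beside 1.29%, and 0 fell in either. Of 19 genes for iron-sulfur proteins and their assembly 7 were higher in Met, 2 were higher in Cys and 10 were not called. Among the former, besides LEU1, the scaffold ISU2 was higher in Met by 1.56 ± 0.16, with mostly fractional values, and the glutaredoxin GRX5 of cluster assembly by 0.82 ± 0.10.

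Mating genes were higher in Cys. Of 19 pheromone response genes tested 13 were higher in Cys and 1, STE3, higher in Met at low, mostly fractional values (25.2 ± 8.09 and 14.5 ± 5.67; 0.78, adjusted p = 0.0272; not called without Met B or Cys A), and the median was -0.59. The receptor STE2 read 3650, 4603, 5472 and 5058 in Met, 8761, 10944, 9272 and 9085 in Cys and 6826, 7050, 6954 and 7127 in Ctrl. The groups did not overlap (-1.03 ± 0.12, adjusted p = 8.19e-08). The a-agglutinin anchor AGA1 (-1.68 ± 0.27), the a-specific gene ASG7 (-1.36 ± 0.16), the cell fusion gene FUS1 (-0.79 ± 0.16) and FAR1, which arrests the cell cycle in response to pheromone (-0.80 ± 0.08), were called too. Against Ctrl 4 fell and 0 rose in Met, beside 3.74% and 6.06% of all genes. In Cys 5 rose and 0 fell, beside 1.29% and 1.54%. The summed level of 5 a-specific marker genes was 9163 to 12089 in Met, 16136 to 20237 in Cys and 14608 to 14812 in Ctrl; the part of mating-type expression in these results was not tested.

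General stress and ribosome biogenesis genes differed in opposite directions, and single libraries weighed on them. Of 40 stress genes 19 were higher in Met and 1, YGP1, a secreted glycoprotein, higher in Cys (-1.26, adjusted p = 0.00179), with a median of 0.80. Without Met B 8 were higher in Met, without Cys A 10, without Cys C 11, without Met A 12, and without Met B and Cys D together 9. The small heat shock protein HSP26 read 386, 334, 191 and 158 in Met and 34.1, 115, 32 and 18.3 in Cys (2.64 ± 0.47, adjusted p = 7.35e-05), and the ribosome-associated stress protein TMA10 read 66.7, 93.8, 38.3 and 46.3 in Met and 1.26, 3.38, 9.32 and 6.65 in Cys (3.47 ± 0.56, adjusted p = 1.80e-05). For neither gene did the groups overlap. Of 25 heat shock chaperone genes 7 were higher in Met, or 3 without Met B, and 1, the co-chaperone YDJ1, was higher in Cys (-0.28, adjusted p = 0.0125; not called without Met D). Against Ctrl 2 stress genes rose and 0 fell in Met (median 0.48), beside 6.06% and 3.74% of all genes. In Cys 0 were called (median -0.41), beside 1.29% and 1.54%. Against the other 7 amino acids 24 stress genes were lower in Cys and 0 higher (median -0.82), beside 17.1% and 17% of all genes. In Met 1 was higher and 2 were lower (median 0.10), beside 7.37% and 7.29%.

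Of 78 ribosome biogenesis genes 47 were higher in Cys and 0 in Met, with a median of -0.46. Without Met B 7 were higher in Cys, without Cys B 19, without Cys A 27, and without Met B and Cys D together 26; with equal library totals the count was 24. The mean log2 level of the 78 genes was 10.51 to 11.24 in the Met libraries, 11.09 to 11.65 in Cys and 11.12 to 11.31 in Ctrl, so the groups overlapped. None of the 78 passed the test against Ctrl in either group. Against the other 7 amino acids 66 of the 78 were higher in Cys and 0 lower (median 0.42), beside 17% and 17.1% of all genes. In Met 0 were called in that comparison (median -0.07). Proteasome genes had 13 of 33 higher in Met and 0 in Cys (median 0.22), 6 without Met B, 6 without Cys B, 8 without Cys D, 2 without Met B and Cys D together, and 25 with equal library totals. The part of growth rate or of a single culture in these lists was not tested. Of 137 cytosolic ribosomal protein genes 5 were higher in Cys and 0 in Met, below the share of all genes.

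**Figure D5:**
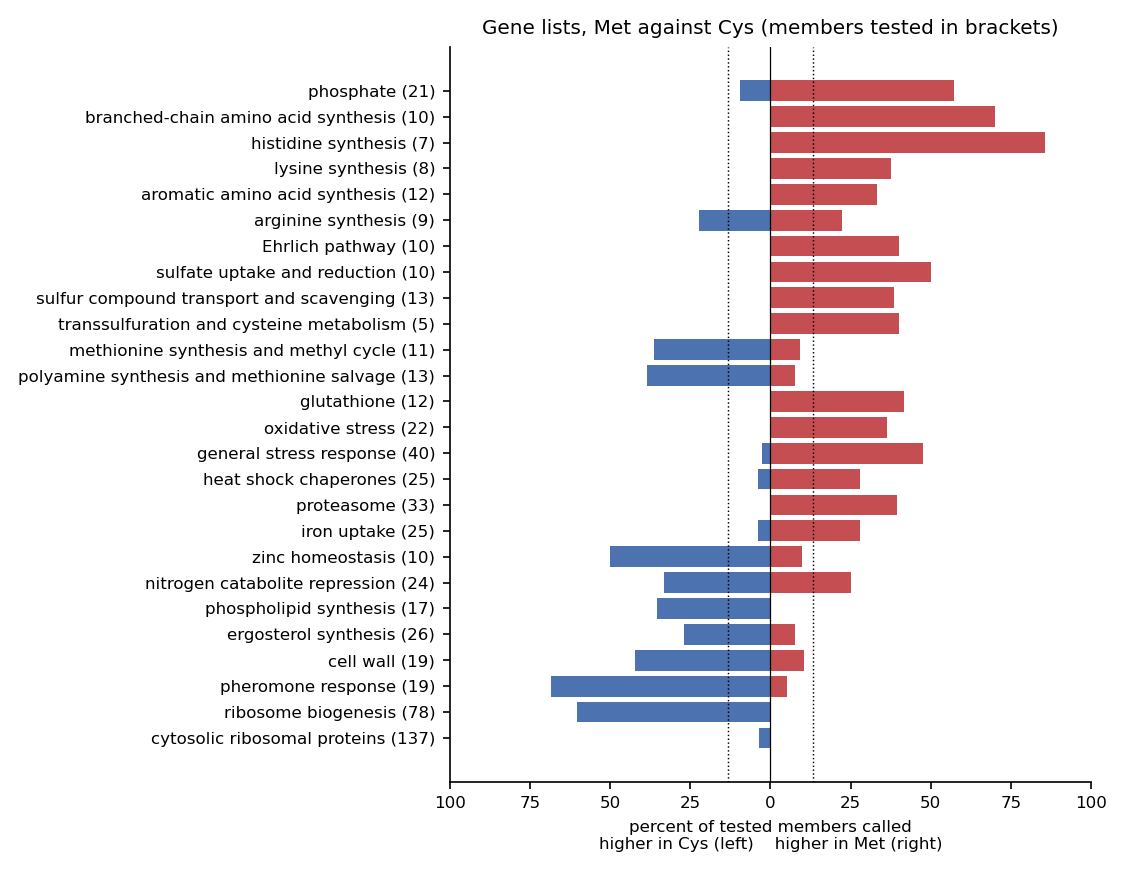
Share of the tested members of 26 gene lists called higher in Met (red, to the right) or higher in Cys (blue, to the left), with the number of members tested in brackets; the dotted lines mark the same shares over all genes, 13.4% and 13.3%. Histidine, branched-chain and phosphate genes lie furthest to the Met side, and pheromone response and ribosome biogenesis genes furthest to the Cys side.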

How the data were processed

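RNA was extracted with a MasterPure Yeast kit, treated with DNase I, and made into strand-specific poly(A) libraries (NEBNext Ultra II Directional), per the labels' protocols. The submitters' processing notes name STAR 2.7.8a and Partek without saying what each did; the sources used here give no genome build, annotation, strand setting or normalization method. The deposited table holds normalized read counts per gene, a signal value made by the authors that is never negative. Between 88.8% and 90.9% of values per library were whole multiples of what 1 read is worth (within 0.1 read), so depth could be estimated, but a count test was not used. Of 6462 genes, 6103 had a mean of at least 5 over the 40 libraries and were tested with limma 3.58.1 in R 4.3.3 (trend, all libraries, no block) on log2(value + 1), with Benjamini-Hochberg adjustment. Met and Cys were each also compared with Ctrl and with the average over the 7 remaining amino acid groups. On simulated data for Met against Cys (6103 genes), 47 of 67 changes of 0.58, 63 of 67 of 1 and 62 of 66 of 2 on the log2 scale were found, with 8 false calls.

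The letters A to D are given as a batch in the labels, and so pair libraries across groups; deviations from group means correlated by 0.174 on average for libraries of the same letter and by -0.0576 for others, and those of Met and Cys by 0.061, 0.114, 0.345 and 0.00145 (A to D). The blocked fit was an alternative. Other alternatives were another pseudocount (0.25 or 4), testing without the filter, scaling to equal totals or by median ratios, a fit to Met, Cys and Ctrl only, and leaving out libraries.

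Genes are named by rule: the 12 largest called differences in either direction (mean over the 8 libraries 20 or more, sign shared by the 4 letters), every tested member of the 5 sulfur lists, and up to 6 called members of each other list; genes that make up a count of 5 or fewer were named after their values were seen, whatever their rank. The members and lists were chosen with earlier results of these data known. Upstream sequences were read from RefSeq R64 by gene ID. Some genes are not analysed here.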

Additional observations from a re-analysis of the deposited data

Results flagged for a closer look

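Among the named genes called between Met and Cys, each group of 4 libraries was examined on the log2(value + 1) scale with Dixon's 95% criterion for a library far from the other 3. Of 448 such groups 23 held one (5.13%), and chance flags about 1 in 20; 8 of the 23 lay in Met C. The normalized counts are given here with no explanation. In Cys A, YCF1 was at 2193 (others 2834 to 2851) and ZAP1 was at 617 (others 889 to 951). In Cys B, ISD11 was at 149 (others 188 to 195). In Cys C, GDH1 was at 18864 (others 14284 to 14906). In Cys D, PHO89 was at 24.9 (others 11.4 to 12) and ENB1 was at 1935 (others 1558 to 1612). In the same library, ARG8 was at 8093 (others 4335 to 4691) and HIS5 was at 2044 (others 1561 to 1631). In Met A, LEU4 was at 15351 (others 18740 to 19075). In Met B, GRX1 was at 602 (others 531 to 532) and RLP7 was at 1397 (others 2180 to 2270). In the same library, ERG5 was at 1636 (others 1114 to 1174). In Met C, MDH2 was at 2037 (others 1114 to 1149) and SAM2 was at 1498 (others 961 to 1024). In the same library, ADO1 was at 7825 (others 6472 to 6514) and RIB3 was at 2561 (others 1645 to 1758). Also in Met C, TPO1 was at 1675 (others 1185 to 1236) and SER3 was at 3620 (others 2738 to 2852). Also in Met C, AGP1 was at 7694 (others 3752 to 4150) and TIP1 was at 7101 (others 4551 to 4880). In Met D, PHO84 was at 7925 (others 6080 to 6219) and COT1 was at 1146 (others 1109 to 1115). In the same library, RPL22B was at 894 (others 742 to 765).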

How the results depend on the processing

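The number of genes that differed between Met and Cys (1624) ranged from 1050 (without Cys B) to 1630 (without Cys D) as single libraries were left out, and the number at least 2-fold apart (240) from 196 to 262. For Met against Ctrl (598) the range was 414 to 630, for Cys against Ctrl (173) 103 to 178, for Met against the other 7 amino acids (895) 659 to 934 and for Cys against them (2086) 1278 to 2117. Cys against Ctrl gave 95 genes when only Met, Cys and Ctrl were fitted; the cause was not tested. With the replicate block Met against Cys gave 1966 genes, Met against Ctrl 888 and Cys against Ctrl 256. With equal library totals the split became 483 higher and 134 lower for Met against Ctrl, 55 and 146 for Cys against Ctrl, 609 and 296 for Met and 568 and 1488 for Cys against the other 7. Of 224 named genes called between Met and Cys, 82 lost the call in at least one fit without a single library, 38 with equal library totals, 31 in the fit to Met, Cys and Ctrl, 6 without the filter on low values, 3 with a pseudocount of 4, 1 with a pseudocount of 0.25 and 0 with the replicate block or the median of ratios; 0 reversed under any of these. The block changed no call among the leading genes. Groups of 4 and unknown doses limit every comparison.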

Other observations

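Of 17 phospholipid synthesis genes 6 were higher in Cys and 0 in Met by limma, among them the inositol transporter ITR1 (8722 ± 1649 in Met and 13889 ± 1219 in Cys, SD, n = 4; -0.68, adjusted p = 0.00646) and the phospholipid methyltransferase OPI3 (-0.59, adjusted p = 0.00443), which uses S-adenosylmethionine. With equal library totals 3 were higher in Cys and 1 in Met, and 3 were higher in Cys without Met B and Cys D together. Ergosterol synthesis genes had 7 of 26 higher in Cys and 2 in Met, beside 13.3% and 13.4% of all genes. These counts were 3 and 5 with equal library totals, and the count in Cys was 4 without Cys B. The squalene epoxidase ERG1 was at 3722 ± 342 in Met and 5297 ± 614 in Cys (-0.51, adjusted p = 0.000134). Of 19 cell wall genes 8 were higher in Cys and 2 in Met, beside the same 13.3% and 13.4%. The first count was 5 without Met D and 4 without Cys D. The second was 1 without Met A, Met B, Cys A, Cys B, Cys C, Ctrl A or Ctrl D. The mannoprotein TIP1 was at 5273 ± 1228 in Met and 12582 ± 1764 in Cys (-1.27, adjusted p = 1.55e-05), and the glucan synthase subunit FKS1 was higher in Cys (-0.62) while its paralog GSC2 was higher in Met (0.82, adjusted p = 0.00118).

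Of 10 genes of kynurenine and NAD synthesis 3 were higher in Met and 1 in Cys, beside 13.4% and 13.3% of all genes. BNA2, the first enzyme of the route from tryptophan to NAD, was at 129 ± 21.1 in Met, 45.9 ± 2.91 in Cys and 72.4 ± 15.1 in Ctrl (Met minus Cys 1.45, adjusted p = 8.90e-10), and the nicotinic acid permease TNA1 was higher in Cys (-0.72, adjusted p = 0.00019), with fractional values in 57.5% of libraries. ADI1, an enzyme of the methionine salvage cycle, was higher in Met (0.85, adjusted p = 6.79e-05), and the decarboxylase SPE2, which takes S-adenosylmethionine into polyamines, was higher in Cys (-0.36, adjusted p = 0.000699). The drug pump PDR5 was lower in Met (1929 ± 221) than in Cys (3553 ± 672; -0.87, adjusted p = 5.54e-05).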
